A study of Mus musculus with 12 samples.

Results

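The comparison was between the parental mouse melanoma cell lines MeVa2.1 and MeVa2.2, 3 RNA-seq libraries each, and takes in 6 of the 12 libraries of the series. Its members were chosen by the sample titles: MeVa2.1 replicates 1 to 3 against MeVa2.2 replicates 1 to 3, across every gene that passed edgeR's filter on low counts (13985 genes). Both lines carry the label WT for genotype, name skin and s.c. tumor of Mus musculus as the tissue, and were left untreated. No age, sex or strain of the mouse is given in the labels. The other 6 libraries are of MeVa2.1.dOVA and MeVa2.2.dOVA, 3 each, also labelled WT and untreated. What dOVA stands for is not given in the labels, and the title of the series names MeVa2.1.dOVA as a line refractory to immunity. Each line is 1 cell line, and the labels do not say whether its 3 libraries came from separate cultures, so the p-values measure the spread between these libraries alone, which may be technical.

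Melanoma arises from melanocytes, the pigment cells of the skin, which descend from the neural crest of the embryo. Melanoma cells can keep the pigment programme driven by Mitf and Sox10, or lose it and take on a dedifferentiated state with neural crest, mesenchymal and receptor kinase genes such as Axl. Loss of Cdkn2a, which encodes 2 cell cycle inhibitors, is frequent in melanoma, and the neighbouring Mtap, an enzyme that recycles the by-product of polyamine synthesis, is often lost with it. Interferon-stimulated genes report on interferon signalling and include antiviral proteins and parts of the antigen presentation machinery.

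The 3 libraries of MeVa2.1 held 18521748, 19204452 and 35627069 counts in genes, and the 3 of MeVa2.2 held 16896708, 18988498 and 26291546. Levels are given as CPM, read counts scaled to library size with edgeR's TMM factors. The share of reads that fell in no gene was 7.35%, 8.41% and 7.16% in MeVa2.1 and 5.48%, 5.95% and 5.37% in MeVa2.2, without overlap, and its part in the results was not tested. Replicate 2 of MeVa2.2 stood apart from its line: it lay at least 1 log2 unit outside the other two libraries in 1865 genes, lower in 1485 of them, against 449 genes for replicate 1, 1107 for replicate 3 and 491 to 741 for each MeVa2.1 library. Ptn, a secreted growth factor, had 41.6, 40.9 and 33.6 CPM in MeVa2.1, against 18, 1.4 and 44.5 CPM in MeVa2.2. Smoc2, a matricellular protein, had 183, 93.9 and 81.7 CPM in MeVa2.1, against 74.4, 6.37 and 169 CPM in MeVa2.2, again lowest in replicate 2.

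The label of melanoma cell line was checked against marker genes. Of 17 pigmentation genes found, 6 never passed 1 CPM in a parental library and 1 of these was at 0 throughout. Sox10, the factor at the head of the melanocyte programme, had 0.273, 0 and 0 CPM in MeVa2.1 and 1.1, 0 and 0.304 CPM in MeVa2.2. Mlana, a melanosome protein, had 0.0546, 0 and 0 CPM in MeVa2.1 and 2.61, 0 and 0.57 CPM in MeVa2.2, while Gpnmb, a glycoprotein of melanosomes and lysosomes, had 312, 234 and 319 CPM in MeVa2.1 and 257, 354 and 95.8 CPM in MeVa2.2. Mitf itself was present at 24.4, 20.4 and 12.9 CPM in MeVa2.1 and 17.2, 10.4 and 14.3 CPM in MeVa2.2, and Pax3, an upstream neural crest factor, at 24.2, 28.9 and 25.7 CPM in MeVa2.1 and 22.2, 26.1 and 21.6 CPM in MeVa2.2. The receptor kinase Axl was abundant, at 1511, 1376 and 1708 CPM in MeVa2.1 and 1715, 1286 and 1484 CPM in MeVa2.2. Markers of leukocytes were near 0: the pan-leukocyte gene Ptprc did not pass 0.232 CPM in any parental library, and 17 of 19 leukocyte markers never passed 1 CPM. In bulk RNA, fewer cells of a type and less RNA per cell cannot be told apart. Of 14 keratinocyte and epithelial markers, 13 never passed 1 CPM. Markers of fibroblasts and mesenchyme were expressed at uneven levels: 2 of 20 never passed 1 CPM, and their summed level was 12100 to 13300 CPM in MeVa2.1 and 6620 to 16100 CPM in MeVa2.2. Among the 20, the intermediate filament gene Vim had 8300, 8912 and 7350 CPM in MeVa2.1 and 5291, 3333 and 8637 CPM in MeVa2.2, and the receptor kinase Pdgfra had 191, 147 and 68.8 CPM in MeVa2.1 and 193, 167 and 199.6 CPM in MeVa2.2. Other members were low: over the parental libraries Dcn ran from 1.13 to 4.37 CPM and Lum from 0.109 to 5.51 CPM. Fap ran from 0.27 to 4.58 CPM and Thy1 from 0.741 to 29.8 CPM. Of 14 endothelial markers 8 never passed 1 CPM, with Cldn5 and Tie1 at 0 in every parental library, while Flt1, a VEGF receptor, had 111, 96 and 101 CPM in MeVa2.1 and 84.3, 93.5 and 129 CPM in MeVa2.2, and Eng, a co-receptor of TGF-beta, had 333, 269.9 and 262 CPM in MeVa2.1 and 225, 215 and 179 CPM in MeVa2.2. Over the parental libraries Cd34 ran from 4.76 to 79.4 CPM and Cd93 from 18.8 to 716 CPM. EdgeR called 0 of the 5 endothelial markers tested, while with the replicate block Cd34 and Cd93 were called lower in MeVa2.1. The part of such cells in the results was not tested.

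Across 13985 genes tested, 627 differed between the lines at an adjusted p under 0.05 (4.48% of all tested), 395 higher in MeVa2.1 (2.82%) and 232 lower (1.66%). The change was at least 2-fold in 555 of them and at least 16-fold in 165, of which 89 were higher and 76 lower in MeVa2.1. The median log2 fold change over all tested genes was -0.02. The 3 libraries of each line did not overlap in 626 of the 627 genes, against 23.4% of all genes tested, and Fam181b was the exception. Of the 627 genes, 595 were protein coding and 15 were lincRNAs. With the parental lines fitted alone, 397 genes were called. With replicate number as a block in the model, 1330 genes were called (9.51%), 838 higher (5.99%) and 492 lower (3.52%), and they included 626 of the 627. The count was 371 without MeVa2.1 replicate 1, 279 without MeVa2.1 replicate 2, 314 without MeVa2.2 replicate 1 and 365 without MeVa2.2 replicate 2. There were 12 fits that left out 1 library each. Where a gene was called with all libraries but not in every such fit, the number that called it is given with its values. In most cases the largest adjusted p is given too.

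**Figure D1:**
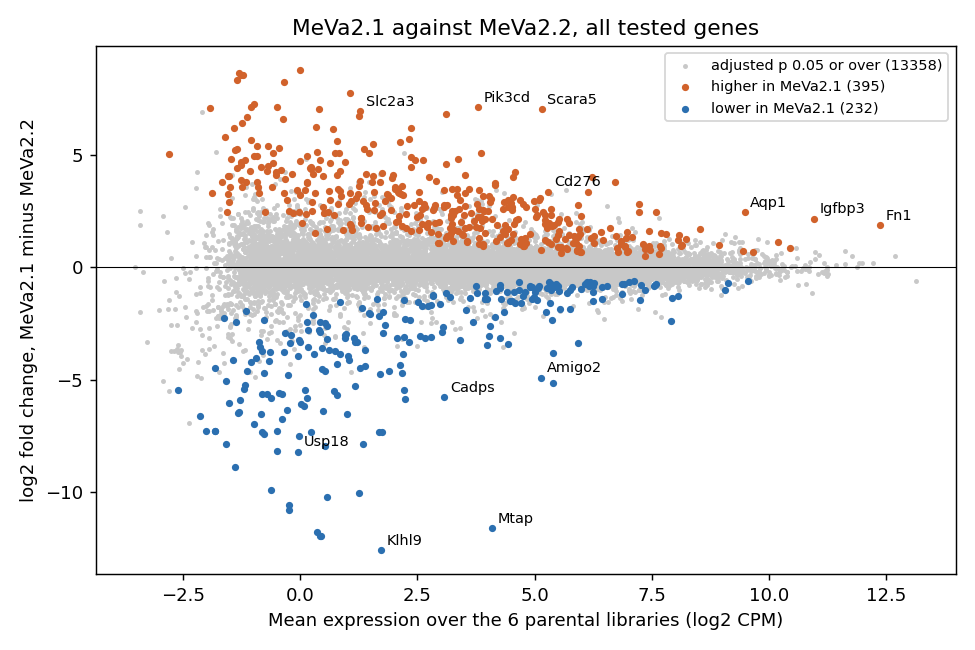
Mean expression over the 6 parental libraries (log2 CPM, x axis) against the log2 fold change, MeVa2.1 minus MeVa2.2 (y axis), for the 13985 tested genes. Orange points are the 395 genes higher in MeVa2.1 and blue points the 232 lower; the lowest blue points include Klhl9 and Mtap of chromosome 4.

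The longest run of neighbouring genes lower in MeVa2.1 was on chromosome 4 and held Mtap and Cdkn2a. From Klhl9 to Dmrta1, a stretch of 0.98 Mb (chr4:88718292-89694772, GRCm38), the files list 49 annotated genes. Over the 3 libraries together these genes held 21 counts in MeVa2.1 and 65645 counts in MeVa2.2. Counts were found for 3 of the 49 genes in MeVa2.1 and for 20 in MeVa2.2. All 9 genes of the stretch that were tested were called lower in MeVa2.1, against 4 called genes in the next-longest run of the genome.

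Mtap (chr4:89137122-89181081, ENSMUSG00000062937) had 3, 8 and 8 counts in MeVa2.1, against 14907, 13423 and 25058 in MeVa2.2. That is 0.164, 0.437 and 0.22 CPM in MeVa2.1, against 866, 725 and 952 CPM in MeVa2.2 (log2 fold change -11.62, SE 0.38, adjusted p = 3.32e-08), so every MeVa2.1 library lay below 1 CPM. Cdkn2a (chr4:89274471-89294653, ENSMUSG00000044303), the tumour suppressor, had 0, 0 and 0 counts in MeVa2.1, against 17, 16 and 19 in MeVa2.2. It was at least 20.4-fold lower in MeVa2.1, setting MeVa2.1 at a floor of 3 counts over the line (adjusted p = 0.00591), and its level in MeVa2.2 was below 1 CPM. Klhl9 (chr4:88718292-88722465, ENSMUSG00000070923), a substrate adaptor of a ubiquitin ligase that acts in mitosis, had 0, 0 and 1 counts in MeVa2.1, against 1543, 2589 and 3260 in MeVa2.2. The ratio of MeVa2.2 to MeVa2.1 was 8698-fold (exact 95% interval 1561 to 343600), an interval that covers counting error only. Dmrta1, a transcription factor gene at the far end, had 0, 0 and 1 counts in MeVa2.1, against 61, 119 and 157 in MeVa2.2.

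Transcripts between them followed the same pattern. Wincr1, a long non-coding RNA, had 0, 0 and 0 counts in MeVa2.1, against 460, 229 and 691 in MeVa2.2, at least 541-fold lower in MeVa2.1. Gm12606 had 0, 0 and 0 counts in MeVa2.1, against 466, 380 and 467 in MeVa2.2, at least 515-fold lower in MeVa2.1. Gm12602 and AL805899.1 had 0 counts in each MeVa2.1 library and 504 and 1177 counts over the MeVa2.2 line. Cdkn2b, the other cell cycle inhibitor of the locus, had 0 counts in all 12 libraries, so it could not be compared.

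The flanking genes on the Mllt3 side did not follow the pattern. Mllt3, a subunit of a transcription elongation complex, had 113, 130 and 121 CPM in MeVa2.1 and 125, 133 and 123 CPM in MeVa2.2. Focad, whose product takes part in the decay of messenger RNA, had 36, 37.3 and 45.6 CPM in MeVa2.1 and 32.9, 25.6 and 36.1 CPM in MeVa2.2. Neither was called (adjusted p = 0.937 for Mllt3 and 0.463 for Focad). On the other side the next gene with at least 20 counts over the series was Elavl2, 1.56 Mb beyond Dmrta1, at 2 counts over the MeVa2.1 line and 4 over MeVa2.2. The stretch was also nearly empty in MeVa2.1.dOVA, with 22 counts over 3 libraries, against 51790 counts in MeVa2.2.dOVA. In that pair, which shares no library with the parental one, Mtap had 0.122, 0.296 and 0.344 CPM in MeVa2.1.dOVA, against 635, 526 and 503 CPM in MeVa2.2.dOVA.

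**Figure D2:**
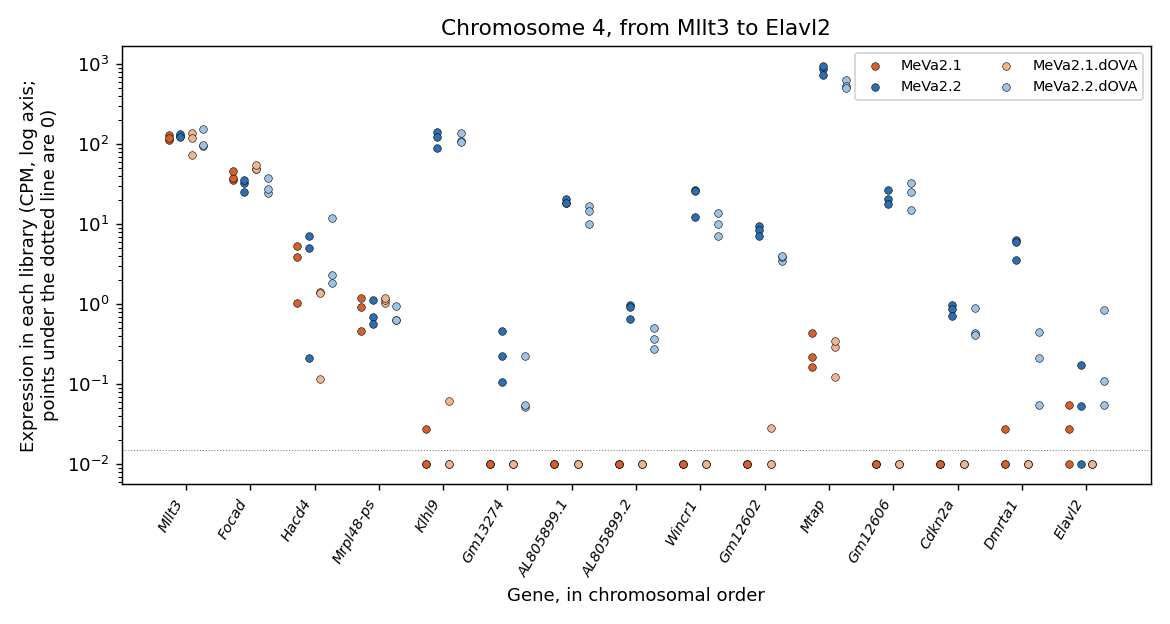
Expression in each library (CPM, log axis) of the genes from Mllt3 to Elavl2 that had at least 20 counts over the series, in chromosomal order. From Klhl9 to Dmrta1 the MeVa2.1 and MeVa2.1.dOVA points lie below 1 CPM and the MeVa2.2 points of each gene lie above its MeVa2.1 points, at 0.465 CPM or less in Gm13274 and up to 952 CPM in Mtap; points under the dotted line are 0 CPM.

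Other genes had nearly all of their counts in 1 line. Of the called genes, 29 had 3 counts or fewer over the whole of MeVa2.2 and 33 had 3 or fewer over the whole of MeVa2.1. Of the 29, 21 were also at 3 counts or fewer over MeVa2.2.dOVA, and of the 33, 29 were at 3 or fewer over MeVa2.1.dOVA. On the expressing side, 12 of the 29 were above 0.5 CPM in MeVa2.1.dOVA and 25 of the 33 in MeVa2.2.dOVA. Zfp951 (chr5:104813169-104860070), a zinc finger gene, had 166, 204 and 312 counts in MeVa2.1, against 1, 0 and 0 in MeVa2.2. The ratio of MeVa2.1 to MeVa2.2 was 579.6-fold (exact 95% interval 104 to 22926), counting error only.

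Without transcripts that carry clone or predicted names, 25 of the 29 and 23 of the 33 remained, from which the 8 with the highest CPM were taken on each side. Foxd3, a transcription factor that specifies the neural crest, had 108, 87 and 323 counts in MeVa2.1, against 0, 0 and 1 in MeVa2.2. Bdkrb2, the bradykinin B2 receptor, had 342, 60 and 27 counts in MeVa2.1, against 1, 1 and 1 in MeVa2.2 (adjusted p = 0.0212, called in 9 of 12 fits, adjusted p up to 0.084 without MeVa2.2 replicate 1). Ptger2, a prostaglandin E2 receptor, had 123, 19 and 56 counts in MeVa2.1, against 0, 1 and 0 in MeVa2.2 (adjusted p = 0.024, called in 9 of 12 fits, adjusted p up to 0.0926 without MeVa2.2 replicate 1). Ptger2 had 0 counts in MeVa2.1.dOVA, so its level in MeVa2.1 was not shared by the dOVA line of that name. Zfp951, Adamtsl1, Inava, Ccdc184 and Zfp521 completed the set that was higher in MeVa2.1, of which Ccdc184 was called in 10 of 12 fits. On the other side, Nkx6-1, a homeobox factor of neurons and pancreatic beta cells, had 3, 0 and 0 counts in MeVa2.1, against 93, 155 and 58 in MeVa2.2. Shisa6, an auxiliary subunit of AMPA glutamate receptors, had 0, 0 and 0 counts in MeVa2.1, against 187, 58 and 409 in MeVa2.2, at least 257-fold lower in MeVa2.1. Slfn8, a Schlafen family gene, had 2, 1 and 0 counts in MeVa2.1, against 297, 74 and 140 in MeVa2.2. Usp18, an interferon-stimulated gene, belonged to the set as well and is given with its group.

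Runs of neighbouring called genes in 1 direction numbered 35, and together held 82 of the 627 genes (13.1%). There were 5 runs of 3 genes or more, and all 5 were lower in MeVa2.1. On the X chromosome, Rragb (chrX:153139981-153171943), a GTPase that links amino acids to mTORC1, had 0.0546, 0 and 0 CPM in MeVa2.1, against 1.86, 2.86 and 2.58 CPM in MeVa2.2 (adjusted p = 0.000577). The ratio of MeVa2.2 to MeVa2.1 was 180-fold (exact 95% interval 31.8 to 7157), counting error only. Its neighbours Klf8, a Krüppel-like transcription factor, and Mageh1 fell with it, at -5.48 ± 0.82 and -5.58 ± 0.95 (log2 fold change ± SE), while Ubqln2 was at 59, 67.6 and 75.6 CPM in MeVa2.1 and 67, 83.7 and 115 CPM in MeVa2.2 (adjusted p = 0.383). Elsewhere on the X chromosome and outside this run, Rps6ka6 (chrX:111388192-111537959), a ribosomal S6 kinase, had 0.0546, 0 and 0 CPM in MeVa2.1, against 3.37, 2.43 and 4.22 CPM in MeVa2.2. The run on chromosome 10 held Alx1, Slc6a15, Tmtc2 and Gm15663. Slc6a15, a transporter of neutral amino acids, had 0.437, 0.0547 and 0.165 CPM in MeVa2.1, against 9.99, 13.2 and 10.2 CPM in MeVa2.2 (log2 fold change -5.68, SE 0.50, adjusted p = 9.73e-05).

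On chromosome 15 the run joined 2 transporters of neutral amino acids to the adhesion gene Amigo2. Slc38a1 had 11.1, 2.62 and 6.92 CPM in MeVa2.1, against 61, 76.7 and 48.4 CPM in MeVa2.2 (log2 fold change -3.17, SE 0.50, adjusted p = 0.00434), and Slc38a2, its neighbour, had 387, 313 and 433 CPM in MeVa2.1, against 658, 901 and 720 CPM in MeVa2.2 (log2 fold change -1.01, SE 0.18, adjusted p = 0.00926, called in 11 of 12 fits, adjusted p up to 0.0508 without MeVa2.1 replicate 2). Amigo2, a leucine-rich adhesion protein, had 6.93, 3.12 and 10.2 CPM in MeVa2.1, against 273, 148 and 203 CPM in MeVa2.2 (log2 fold change -4.93, SE 0.69, adjusted p = 0.00235). A run of 2 on chromosome 2 went the other way. Ubr1, a ubiquitin ligase that reads protein N-termini, had 71, 62 and 63.1 CPM in MeVa2.1, against 8.59, 3.94 and 3.15 CPM in MeVa2.2 (log2 fold change 3.65, SE 0.60, adjusted p = 0.00527), and adjacent Tmem62 had 9.93, 7.55 and 8.32 CPM in MeVa2.1, against 0.813, 0.594 and 0.418 CPM in MeVa2.2. Ttbk2 and Ccndbp1, on either side of this pair, were not called (adjusted p = 0.365 and 0.608).

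No whole chromosome had a shifted median. The median log2 fold change of each chromosome, minus that over all genes, lay between -0.08 (X) and 0.05 (chromosome 7), and the share of genes called ran from 3.22% on chromosome 16 to 6.75% on chromosome 15. Windows of 25 neighbouring genes passed a median shift of 0.5 in 4 places. One was lower in MeVa2.1 (chr1:172126755-178337797, with Hnrnpu and Tagln2) and 3 were higher: chr5:63649102-67057158 with Rpl9 and Klf3, chr13:12472632-17695553 with Nid1 and Psma2, and chr19:3767421-4448973 with Ppp1ca and Kdm2a. Over each place as a whole the median log2 fold change was -0.31, 0.61, 0.54 and 0.37, in the same order. The place on chromosome 1 held the run of Ifi211 and Ifi203, lower in MeVa2.1 and called in 11 of 12 and 9 of 12 fits. Its mean log2 CPM was 3.07, 3.05 and 3.09 in MeVa2.1, against 3.97, 3.44 and 3.47 in MeVa2.2. With windows of 50 genes no place passed. Leaving out 1 library gave between 5 places (without MeVa2.1 replicate 2) and 28 (without MeVa2.2 replicate 3), more than with all libraries.

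The 12 largest rises in MeVa2.1, among called genes whose log2 CPM averaged at least 3 over the 6 libraries and without clone or predicted names, had log2 fold changes of 3.75 to 7.12. Pik3cd, the catalytic delta subunit of phosphoinositide 3-kinase known mainly from leukocytes, had 180.5, 173 and 138 CPM in MeVa2.1, against 1.74, 0.648 and 1.14 CPM in MeVa2.2 (log2 fold change 7.12, SE 0.51, adjusted p = 1.97e-05). Its neighbours Clstn1 and Tmem201 were not called, with adjusted p of 0.571 and 0.79. Scara5, a ferritin receptor, had 332, 682 and 431 CPM in MeVa2.1, against 4.07, 0.702 and 6.08 CPM in MeVa2.2 (log2 fold change 7.04, SE 0.64, adjusted p = 0.000118). Tfap2b, an AP-2 factor of the neural crest, had 117, 52 and 168 CPM in MeVa2.1, against 0.697, 0.162 and 1.98 CPM in MeVa2.2 (log2 fold change 6.82, SE 0.75, adjusted p = 0.00044). The rule also required that the lines not overlap, and in these 3 genes the lowest MeVa2.1 library lay far above the highest MeVa2.2 library.

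Nrcam, a neuronal adhesion molecule, had 322, 339 and 325 CPM in MeVa2.1, against 24.3, 29.9 and 6.42 CPM in MeVa2.2 (log2 fold change 4.03, SE 0.70, adjusted p = 0.00741), with close agreement among the MeVa2.1 libraries. Fbln2, a matrix glycoprotein of basement membranes, had 121, 76.1 and 108 CPM in MeVa2.1, against 6.85, 2.21 and 9.5 CPM in MeVa2.2 (log2 fold change 4.03, SE 0.64, adjusted p = 0.00447). Rap1gap2, which switches off the small GTPase Rap1, had 71.4, 69.4 and 56.3 CPM in MeVa2.1, against 5.92, 3.94 and 4.75 CPM in MeVa2.2 (log2 fold change 3.75, SE 0.31, adjusted p = 7.05e-05). Tril, an accessory protein of Toll-like receptor signalling, had 132, 103 and 81.4 CPM in MeVa2.1, against 6.74, 5.62 and 4.37 CPM in MeVa2.2. Lrrc32, the anchor that holds latent TGF-beta on the cell surface, had 35, 64.4 and 41.3 CPM in MeVa2.1, against 2.56, 0.486 and 2.74 CPM in MeVa2.2 (adjusted p = 0.0142, called in 10 of 12 fits, adjusted p up to 0.0607 without MeVa2.2 replicate 1). In 3 others, replicate 3 lay well below the other MeVa2.1 libraries. Atp2a3, a calcium pump of the endoplasmic reticulum, had 506, 695 and 137 CPM in MeVa2.1, against 50.2, 27.5 and 19.9 CPM in MeVa2.2. Pdlim4, an actin-associated protein, had 76, 73.5 and 18.6 CPM in MeVa2.1, against 5.87, 1.19 and 2.77 CPM in MeVa2.2, and Slc37a2, a sugar-phosphate exchanger, had 145, 162 and 14.4 CPM in MeVa2.1, against 4.41, 1.57 and 3.57 CPM in MeVa2.2. The water channel Aqp5 had 64.6, 30 and 102 CPM in MeVa2.1, against 4.12, 0.486 and 2.39 CPM in MeVa2.2 (adjusted p = 0.0492, called in 2 of 12 fits, adjusted p up to 0.14 without MeVa2.2 replicate 2).

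The largest falls under the same rule followed Mtap. Cadps, which primes dense-core vesicles for release, had 1.58, 1.04 and 0.824 CPM in MeVa2.1, against 45.9, 49.2 and 92.5 CPM in MeVa2.2 (log2 fold change -5.79, SE 0.71, adjusted p = 0.000766). Amigo2 and Slc38a1 belong to the set as well. Glipr1, a p53 target gene, had 14.8, 9.9 and 9.3 CPM in MeVa2.1, against 157, 199 and 129.8 CPM in MeVa2.2 (log2 fold change -3.84, SE 0.45, adjusted p = 0.00057). Slc27a1, a fatty acid transporter, had 7.53, 2.9 and 4.36 CPM in MeVa2.1, against 51.2, 65.5 and 44.9 CPM in MeVa2.2 (log2 fold change -3.45, SE 0.37, adjusted p = 0.000386). Chst2, a sulfotransferase of glycans, had 19.1, 13.9 and 24.7 CPM in MeVa2.1, against 185, 209.6 and 196 CPM in MeVa2.2 (log2 fold change -3.35, SE 0.33, adjusted p = 0.000192), and Rnf165, a ubiquitin ligase of BMP signalling in motor neurons, had 5.08, 8.86 and 3.65 CPM in MeVa2.1, against 46.3, 50.8 and 47.4 CPM in MeVa2.2 (log2 fold change -3.04, SE 0.32, adjusted p = 0.000285). Fam189a1 had 11.9, 7.33 and 2.69 CPM in MeVa2.1, against 104, 68.7 and 59.4 CPM in MeVa2.2 (adjusted p = 0.0113, called in 11 of 12 fits, adjusted p up to 0.0625 without MeVa2.1 replicate 2). The lines did not overlap in any of these genes, which the rule required. Sulf1, which removes sulfate from heparan sulfate, had 8.57, 3.34 and 0.906 CPM in MeVa2.1, against 47.9, 18.2 and 55.2 CPM in MeVa2.2 (log2 fold change -3.26, SE 0.79, adjusted p = 0.0387, called in 5 of 12 fits, adjusted p up to 0.165 without MeVa2.1 replicate 2). Tmem171 had 4.69, 1.8 and 2.99 CPM in MeVa2.1, against 14.9, 37.5 and 17.8 CPM in MeVa2.2 (log2 fold change -2.89, SE 0.69, adjusted p = 0.0378, called in 4 of 12 fits, adjusted p up to 0.159 without MeVa2.1 replicate 2).

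**Figure D3:**
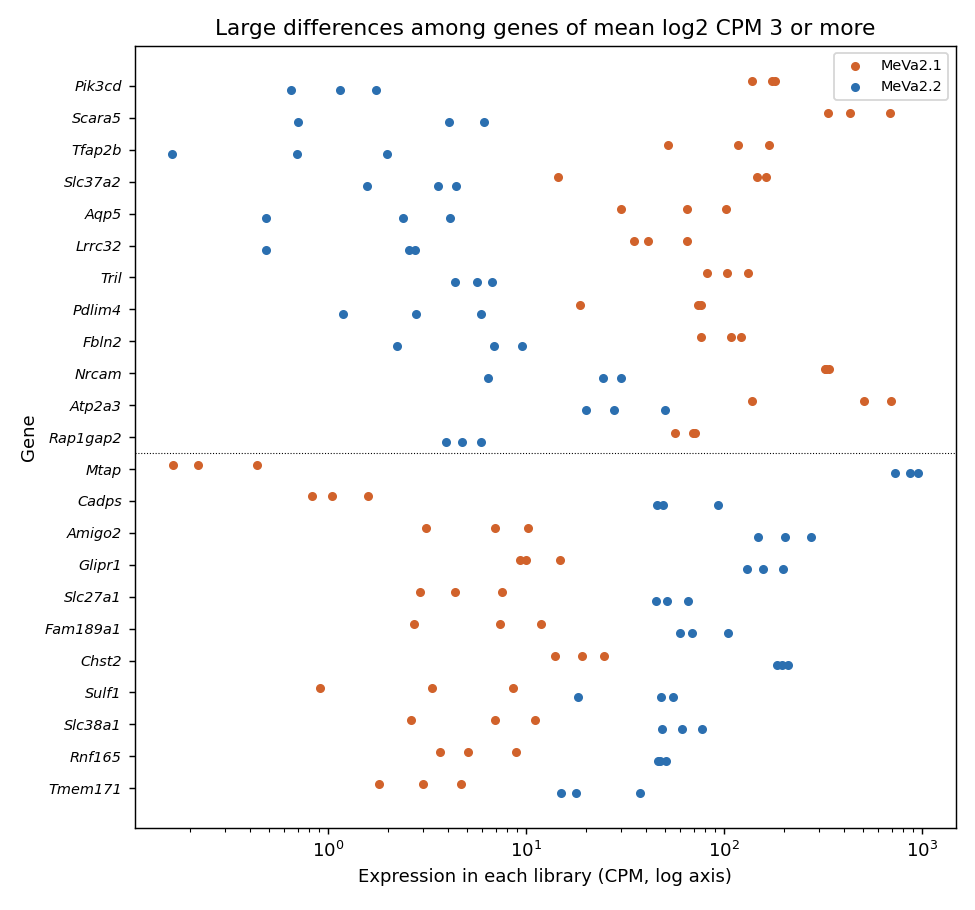
Expression in each library (CPM, log axis) of the 12 called genes with the largest rise in MeVa2.1 (above the dotted line) and 11 of the 12 with the largest fall (below it), among genes whose log2 CPM averaged at least 3. Orange points are the 3 MeVa2.1 libraries and blue points the 3 MeVa2.2 libraries. No gene overlaps between the lines, which the rule required.

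Of 40 interferon-stimulated genes tested, 7 fell in MeVa2.1 and none rose. The fold change was below 0 in 39 of them, and the median log2 fold change was -1.88, beside -0.02 over all genes. The 7 were Usp18, Ifi44, Irf9, Rtp4, Iigp1, Irf7 and Gbp3, which is 17.5% of the list beside 1.66% of all genes called lower. The libraries of the lines did not overlap in 12 of the 40, beside 23.4% of all genes. The list's mean log2 CPM was 1.3, 1.2 and 0.97 in MeVa2.1, against 4.18, 2.55 and 1.49 in MeVa2.2. Replicate 1 of MeVa2.2 lay above every MeVa2.1 library in 40 of 40 members, replicate 2 in 31 and replicate 3 in 14. In MeVa2.2 the list was thus high in replicate 1 and close to MeVa2.1 in replicate 3.

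Usp18, the protease that removes ISG15 and dampens interferon signalling, had 0, 0.109 and 0.0274 CPM in MeVa2.1, against 31.4, 9.45 and 1.33 CPM in MeVa2.2. In counts it had 0, 2 and 1 counts in MeVa2.1, against 540, 175 and 35 in MeVa2.2, a ratio of MeVa2.2 to MeVa2.1 of 294-fold (exact 95% interval 100.3 to 1429.7) that covers counting error only (adjusted p = 0.00807). Ifi44, an interferon-induced protein of the cytoplasm, had 0.437, 0.765 and 0.192 CPM in MeVa2.1, against 27.9, 21.6 and 1.56 CPM in MeVa2.2 (log2 fold change -5.27, SE 0.97, adjusted p = 0.0105, called in 11 of 12 fits, adjusted p up to 0.0501 without MeVa2.1 replicate 3). Irf9, the DNA-binding part of the complex that type I interferon activates, had 7.7, 8.31 and 11.1 CPM in MeVa2.1, against 62, 49.7 and 14.5 CPM in MeVa2.2 (log2 fold change -2.22, SE 0.43, adjusted p = 0.0145, called in 9 of 12 fits, adjusted p up to 0.0759 without MeVa2.1 replicate 2). Irf7, which drives interferon alpha genes, had 0.655, 1.09 and 0.796 CPM in MeVa2.1, against 22.3, 8.48 and 2.13 CPM in MeVa2.2 (log2 fold change -3.68, SE 0.89, adjusted p = 0.0385, called in 4 of 12 fits, adjusted p up to 0.138 without MeVa2.1 replicate 1). In each of these genes replicate 1 of MeVa2.2 was the highest library and replicate 3 the lowest of its line.

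Rtp4, an interferon-induced chaperone of receptors, Gbp3, a guanylate-binding protein, and Iigp1, a GTPase of intracellular defence, had log2 fold changes of -3.16, -3.16 and -5.40, and were called in 8 of 12, 3 of 12 and 5 of 12 fits without 1 library. Isg15, the ubiquitin-like modifier, had 12.5, 8.04 and 5.08 CPM in MeVa2.1, against 71.8, 21.8 and 5.93 CPM in MeVa2.2 and missed the threshold (log2 fold change -1.96, SE 0.81, adjusted p = 0.228). Under the replicate block 10 members were called, all lower, and among them Ddx58, the RNA sensor RIG-I, had an adjusted p of 0.0471 there, against 0.0573 without the block. The count of members called was 2 without MeVa2.1 replicate 1, 2 or 3 or without MeVa2.2 replicate 1, 4 without MeVa2.1.dOVA replicate 1 or 3, and 11 without MeVa2.2 replicate 3. It was 1 with the parental lines fitted alone and 16 in DESeq2.

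**Figure D4:**
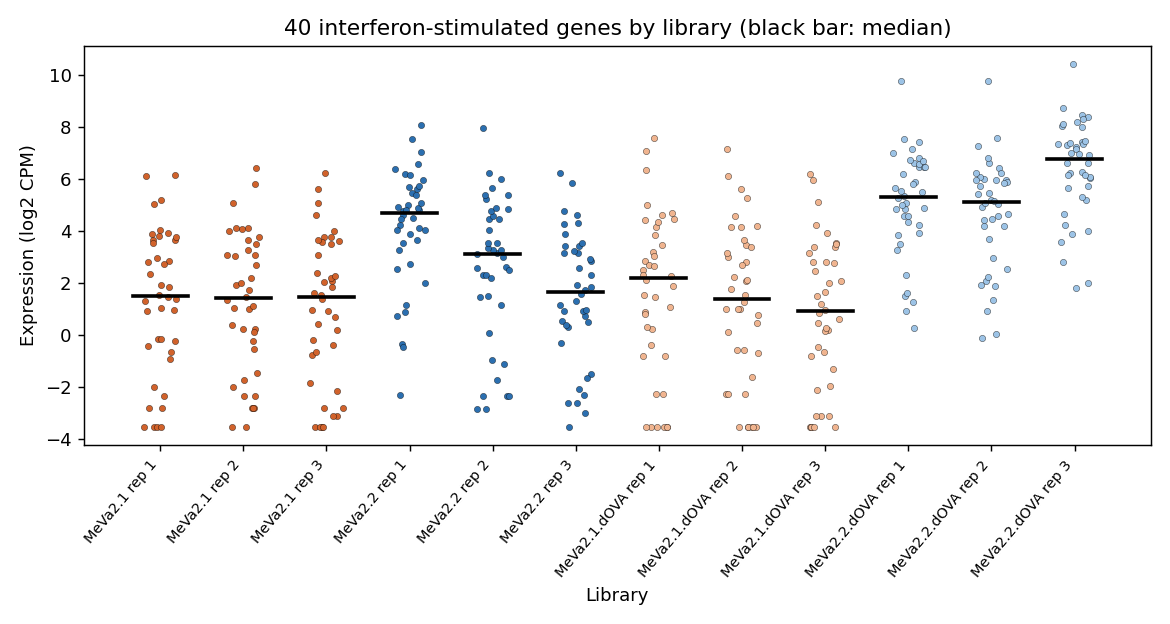
Expression (log2 CPM) of the 40 interferon-stimulated genes in each of the 12 libraries, 1 point per gene, with the median as a black bar. The MeVa2.1 medians lie between 1.41 and 1.49 and the MeVa2.2 medians at 4.69, 3.12 and 1.64 for replicates 1 to 3.

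Interferon-activated complexes of Stat and Irf proteins bind a repeat of the letters GAAA. The motif GAAANNGAAA was searched on both strands in 300 bases per gene, 250 before the start and 50 after it (RefSeq, GRCm38.p6). It occurred in 3.99% of 27025 genes and in 57.1% of the 28 list members with an entry, 16 in all. It was in 6.21% of the 161 entries of genes called lower in MeVa2.1 and in 4.12% of the 291 entries of genes called higher. Of the 4 called list members with an entry, Gbp3 held it, and Ifi44, Irf9 and Irf7 had no match in this window. The 4 list members with a match and the smallest adjusted p are shown 5′ to 3′ on the gene's strand, with the motif on either strand in capitals, since they show where it stands relative to the start.
Gbp3 (chr3:142559974-142560039, plus strand): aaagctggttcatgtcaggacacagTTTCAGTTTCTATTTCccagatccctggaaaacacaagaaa
Ddx58 (chr4:40239789-40239848, minus strand): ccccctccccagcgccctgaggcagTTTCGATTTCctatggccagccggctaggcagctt
Irgm1 (chr11:48871410-48871475, minus strand): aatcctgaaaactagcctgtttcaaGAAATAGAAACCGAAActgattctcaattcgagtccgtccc
Stat2 (chr10:128270251-128270310, plus strand): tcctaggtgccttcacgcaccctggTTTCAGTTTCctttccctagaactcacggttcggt
In Gbp3 and Irgm1 a pair of matches overlapped, and the first began 45 and 30 bases before the start. A match is a description of the sequence, not a measured site. Of the 4 genes, Gbp3 was called lower in MeVa2.1, while the adjusted p was 0.0573 for Ddx58, 0.0835 for Irgm1, a GTPase of intracellular defence, and 0.186 for Stat2, a partner of Irf9.

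The list of interferon receptors and Jak kinases also held Socs3, which is neither. Of its 12 genes, 2 rose and none fell (16.7%, and the share called stands likewise beside the lists that follow, to be read against 4.48% of all genes, or 9.51% with the replicate block). Tyk2, a kinase of the type I interferon receptor, had 45.7, 55.1 and 50.6 CPM in MeVa2.1, against 18, 13.8 and 22.1 CPM in MeVa2.2 (log2 fold change 1.49, SE 0.33, adjusted p = 0.0296, called in 6 of 12 fits, adjusted p up to 0.106 without MeVa2.2 replicate 2). Socs3, a feedback inhibitor of cytokine signalling, had 61.5, 108 and 53.3 CPM in MeVa2.1, against 16, 16.7 and 33.9 CPM in MeVa2.2 (log2 fold change 1.74, SE 0.33, adjusted p = 0.0115, called in 11 of 12 fits, adjusted p up to 0.056 without MeVa2.2 replicate 1). The receptor chain Ifnar1 had 76.5, 94.4 and 80.2 CPM in MeVa2.1 and 74.8, 66 and 83.8 CPM in MeVa2.2, and the kinase Jak1 had 203, 247 and 224 CPM in MeVa2.1 and 224, 222 and 216 CPM in MeVa2.2. Ifngr2, a chain of the interferon gamma receptor, had 31.4, 41.9 and 28.6 CPM in MeVa2.1, against 57.7, 56.3 and 81.5 CPM in MeVa2.2, with an adjusted p of 0.108, or 0.0354 with the replicate block.

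Of 20 MHC class I presentation genes tested, 1 fell and none rose (5% of the list, beside 4.48% of all genes), and with the replicate block 1 rose and 1 fell. H2-M3, a non-classical class I molecule that presents formylated peptides, had 0.928, 0.437 and 0.659 CPM in MeVa2.1, against 6.74, 5.08 and 4.07 CPM in MeVa2.2 (log2 fold change -2.96, SE 0.34, adjusted p = 0.000511). B2m, the light chain, had 499, 579 and 344 CPM in MeVa2.1 and 574, 571 and 377 CPM in MeVa2.2, and H2-D1 had 115, 102 and 63.9 CPM in MeVa2.1 and 112, 91.3 and 60.3 CPM in MeVa2.2. H2-K1 had 61.3, 33.9 and 20.2 CPM in MeVa2.1 and 28.9, 22.6 and 11.4 CPM in MeVa2.2 (adjusted p = 0.31, or 0.0495 with the replicate block). Class I genes are alike in sequence to differing degrees, so the values of H2-M3, H2-K1 and H2-D1 are uncertain where reads could be split. The median over the list was -0.03.

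Among 20 checkpoint ligands and immune modulators, 2 rose (10% of the list, beside 2.82% of all genes called higher), and with the replicate block 5 rose and 1 fell. Cd276 (B7-H3), a surface inhibitor of T cells, had 126, 152 and 115 CPM in MeVa2.1, against 11.3, 20.1 and 6.95 CPM in MeVa2.2 (log2 fold change 3.36, SE 0.50, adjusted p = 0.00344). Ceacam1, an adhesion molecule and inhibitory ligand, had 36.8, 53.1 and 26.5 CPM in MeVa2.1, against 5.4, 8.53 and 6.73 CPM in MeVa2.2 (log2 fold change 2.49, SE 0.38, adjusted p = 0.00351). Both were called in each fit without 1 library. Cd274, which encodes PD-L1, had 5.02, 7.6 and 2.28 CPM in MeVa2.1 and 7.08, 6.7 and 1.41 CPM in MeVa2.2 (adjusted p = 0.99). Of 22 chemokines and cytokines 1 rose (4.55%, near the 4.48% of all genes), and with the replicate block 4 rose and 2 fell. Il34, a ligand of the macrophage receptor Csf1r, had 153, 163 and 92.5 CPM in MeVa2.1, against 57.4, 53 and 63.5 CPM in MeVa2.2 (log2 fold change 1.23, SE 0.26, adjusted p = 0.0237, called in 8 of 12 fits, adjusted p up to 0.102 without MeVa2.1 replicate 2). Csf1, the other ligand of that receptor, spread widely at 484, 449.5 and 604 CPM in MeVa2.1 and 1032, 1519 and 355 CPM in MeVa2.2 (adjusted p = 0.331).

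Of 21 neural crest and melanocyte transcription factors, 3 rose and none fell (14.3%), with a median of 0.46, and with the replicate block 6 rose and 2 fell. Foxd3 and Tfap2b are given above, and the third was Tfap2a, an AP-2 factor of neural crest and melanocytes, at 104, 124 and 108 CPM in MeVa2.1, against 55.3, 51.7 and 52.6 CPM in MeVa2.2 (log2 fold change 1.08, SE 0.23, adjusted p = 0.023, called in 6 of 12 fits, adjusted p up to 0.0956 without MeVa2.1 replicate 2). Sox9 had 63.9, 40.9 and 22.8 CPM in MeVa2.1 and 23.6, 41 and 28 CPM in MeVa2.2, Snai2 had 75.5, 50.5 and 74 CPM in MeVa2.1 and 68.7, 79.5 and 33.2 CPM in MeVa2.2 and Zeb2 had 203, 230.1 and 242 CPM in MeVa2.1 and 239, 312 and 132 CPM in MeVa2.2, all overlapping between the lines.

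No pigmentation gene was called among 8 tested by edgeR. At an unadjusted p under 0.05 there were 3, and DESeq2 called 1. The enzymes of melanin synthesis had the highest values in replicate 1 of both lines: Dct had 0.655, 0 and 0 CPM in MeVa2.1 and 15.6, 0 and 2.28 CPM in MeVa2.2, and Tyrp1 had 0.6, 0 and 0 CPM in MeVa2.1 and 12.1, 0 and 2.09 CPM in MeVa2.2. Pmel, the scaffold of melanosomes, had 0.491, 0.273 and 0.302 CPM in MeVa2.1 and 6.27, 0.27 and 1.52 CPM in MeVa2.2. Replicate 1 of MeVa2.2 was the highest of the 6 libraries in all 3. The replicate block sets each MeVa2.2 library against the MeVa2.1 library of the same number, and under it these 3 genes were called lower (adjusted p = 0.0158 for Dct, 0.0201 for Tyrp1 and 0.0385 for Pmel).

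Genes of the dedifferentiated melanoma state went both ways. Of 22 tested, 3 rose and 1 fell (18.2%), with a median log2 fold change of 0.11. Ngfr, the nerve growth factor receptor that marks neural crest-like melanoma, had 6.11, 1.2 and 1.56 CPM in MeVa2.1, against 0.174, 0 and 0.304 CPM in MeVa2.2 (log2 fold change 4.09, SE 1.01, adjusted p = 0.0438, called in 2 of 12 fits, adjusted p up to 0.163 without MeVa2.1 replicate 1). The water channel Aqp1 had 1527, 2966 and 1117 CPM in MeVa2.1, against 323, 149.6 and 551 CPM in MeVa2.2 (log2 fold change 2.45, SE 0.60, adjusted p = 0.0401, called in 5 of 12 fits, adjusted p up to 0.159 without MeVa2.1 replicate 2). Gfra2, a neurturin receptor, had 47.3, 28.1 and 38.3 CPM in MeVa2.1, against 5.28, 1.67 and 4.56 CPM in MeVa2.2 (adjusted p = 0.0344, called in 5 of 12 fits, adjusted p up to 0.11 without MeVa2.2 replicate 2). Wnt5a, a ligand of non-canonical Wnt signalling, fell with 0.0546, 0.219 and 0.357 CPM in MeVa2.1, against 3.95, 2.32 and 4.22 CPM in MeVa2.2 (log2 fold change -3.94, SE 0.65, adjusted p = 0.00558). Of 12 Schwann and glial genes, Nrcam and the growth cone protein Gap43 rose and the adhesion gene Cadm1 fell (25%). With the replicate block 3 rose and 1 fell. Gap43 had 28, 26.9 and 14.2 CPM in MeVa2.1, against 8.36, 2.92 and 5.81 CPM in MeVa2.2 (adjusted p = 0.0266, called in 8 of 12 fits, adjusted p up to 0.096 without MeVa2.1 replicate 2), and Cadm1 had 85.8, 75.9 and 115 CPM in MeVa2.1, against 278, 291 and 203 CPM in MeVa2.2 (log2 fold change -1.48, SE 0.26, adjusted p = 0.00839, called in 11 of 12 fits, adjusted p up to 0.0509 without MeVa2.1 replicate 2).

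Of 33 basement membrane and matricellular genes, 6 rose in MeVa2.1 and none fell, which is 18.2% of the list beside 2.82% of all genes called higher. The fold change was above 0 in 26 of the 33, and the median was 0.70. There were 10 higher and 1 lower with the replicate block, and leaving out 1 library left between 2 and 6 higher. Nid1, which ties laminin to collagen IV, had 630.2, 692 and 682 CPM in MeVa2.1, against 201, 181 and 231 CPM in MeVa2.2 (log2 fold change 1.71, SE 0.25, adjusted p = 0.00304). Fn1, fibronectin, was among the most abundant messages at 7311, 17070 and 8052 CPM in MeVa2.1, against 2627, 4375 and 1867 CPM in MeVa2.2 (log2 fold change 1.87, SE 0.40, adjusted p = 0.0225, called in 9 of 12 fits, adjusted p up to 0.088 without MeVa2.1 replicate 2). Sparcl1, a matricellular protein, had 193, 300.5 and 315 CPM in MeVa2.1, against 20, 6.32 and 51.8 CPM in MeVa2.2 (log2 fold change 3.37, SE 0.62, adjusted p = 0.01, called in 11 of 12 fits, adjusted p up to 0.0604 without MeVa2.2 replicate 1). Prelp, a leucine-rich proteoglycan, and Lama2, a laminin chain, had log2 fold changes of 5.07 and 2.21 and were called in 7 of 12 and 5 of 12 fits without 1 library. Fbln2 completed the 6.

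Of 21 collagens tested in the list, which left out Col4a3 and Col4a4, 2 rose and none fell (9.52%), and the replicate block added 2 lower. The 2 that rose, Col4a5 and Col4a6, are collagen IV chains encoded head to head on the X chromosome. Col4a6 had 33.9, 42.1 and 18.8 CPM in MeVa2.1, against 4.47, 2.32 and 7.45 CPM in MeVa2.2 (log2 fold change 2.73, SE 0.57, adjusted p = 0.0207, called in 8 of 12 fits, adjusted p up to 0.0867 without MeVa2.1 replicate 2), and Col4a5 had 238, 475 and 219 CPM in MeVa2.1, against 97.4, 95.9 and 114 CPM in MeVa2.2 (log2 fold change 1.60, SE 0.41, adjusted p = 0.0495, called in 2 of 12 fits, adjusted p up to 0.222 without MeVa2.1 replicate 2). Col4a3 and Col4a4, the chains encoded head to head on chromosome 1, formed a run in the opposite direction at low levels. Both were called lower in MeVa2.1 (adjusted p = 0.00807 for Col4a3 and 0.00788 for Col4a4). Col4a4 had 0, 0 and 0.0549 CPM in MeVa2.1, against 0.987, 3.46 and 1.1 CPM in MeVa2.2. Col4a1 had 607, 721 and 660 CPM in MeVa2.1 and 679, 466 and 819 CPM in MeVa2.2, and Col1a1 had 609, 757 and 1142 CPM in MeVa2.1 and 779, 359.6 and 1459 CPM in MeVa2.2. Of 19 fibroblast markers, edgeR called none, 5 had an unadjusted p under 0.05 and DESeq2 called 2, while with the replicate block Postn and Pdpn rose and Col1a2 fell (adjusted p = 0.00505, 0.00633 and 0.0179).

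Among 34 matrix proteases and inhibitors, 2 rose and 1 fell (8.82%), and with the replicate block 5 rose and 3 fell. Mmp17, a membrane-anchored metalloproteinase, fell with 1.53, 0.765 and 0.521 CPM in MeVa2.1, against 20.6, 12.1 and 39.3 CPM in MeVa2.2 (log2 fold change -4.71, SE 0.61, adjusted p = 0.0012). Hpse, heparanase, rose with 22.6, 31.7 and 25.9 CPM in MeVa2.1, against 7.2, 2.21 and 4.03 CPM in MeVa2.2 (log2 fold change 2.58, SE 0.52, adjusted p = 0.0175, called in 9 of 12 fits, adjusted p up to 0.0701 without MeVa2.1 replicate 2), and Adamts12, a secreted metalloproteinase, with 16.9, 31.1 and 24.7 CPM in MeVa2.1, against 4.47, 1.46 and 8.63 CPM in MeVa2.2 (adjusted p = 0.0374, called in 4 of 12 fits, adjusted p up to 0.137 without MeVa2.1 replicate 2). Of 27 integrins and adhesion genes, 2 rose and none fell (7.41%), and with the replicate block 6 rose and 1 fell. Itga1, the alpha chain of a collagen receptor, had 63.3, 36.6 and 45.1 CPM in MeVa2.1, against 9.12, 2.48 and 7.9 CPM in MeVa2.2 (adjusted p = 0.0484, called in 3 of 12 fits, adjusted p up to 0.14 without MeVa2.2 replicate 2). Itgb5, a chain of a vitronectin receptor, had 155, 144 and 177 CPM in MeVa2.1, against 107, 111 and 83.2 CPM in MeVa2.2 (adjusted p = 0.0424, called in 2 of 12 fits, adjusted p up to 0.126 without MeVa2.1 replicate 3). Of 12 cadherins and junction genes, 1 fell and none rose (8.33%), and with the replicate block 2 fell. Tjp1, the scaffold of tight junctions, fell with 139, 146 and 166 CPM in MeVa2.1, against 215, 281 and 253 CPM in MeVa2.2 (log2 fold change -0.73, SE 0.15, adjusted p = 0.02, called in 9 of 12 fits, adjusted p up to 0.0869 without MeVa2.1 replicate 2). Cdh2 had 213, 164 and 229 CPM in MeVa2.1 and 172, 142 and 207 CPM in MeVa2.2.

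In the Wnt pathway, 3 of 25 rose and 1, Wnt5a, fell (16%), and with the replicate block 5 rose and 2 fell. Ror2, the receptor that Wnt5a binds, rose with 13.4, 10.9 and 10.7 CPM in MeVa2.1, against 0.871, 0.378 and 0.798 CPM in MeVa2.2 (log2 fold change 4.08, SE 0.63, adjusted p = 0.0039), so the ligand and its receptor went opposite ways. Tcf7, a transcription factor at the end of the pathway, had 64.7, 98.2 and 55.7 CPM in MeVa2.1, against 16.1, 9.88 and 20.8 CPM in MeVa2.2 (log2 fold change 2.22, SE 0.35, adjusted p = 0.00431), and Nkd2, an inhibitor of Dishevelled, had 25.1, 10.4 and 9.61 CPM in MeVa2.1, against 1.57, 0.81 and 2.39 CPM in MeVa2.2 (log2 fold change 3.22, SE 0.70, adjusted p = 0.0247, called in 9 of 12 fits, adjusted p up to 0.0924 without MeVa2.2 replicate 1). Of 24 TGF-beta and BMP genes, 2 rose and 1 fell (12.5%), and with the replicate block 6 rose and 4 fell. The ligand Bmp6 had 27.9, 27.1 and 33.3 CPM in MeVa2.1, against 0.755, 3.08 and 0.19 CPM in MeVa2.2 (log2 fold change 4.48, SE 0.80, adjusted p = 0.00839, called in 11 of 12 fits, adjusted p up to 0.0519 without MeVa2.2 replicate 1). Inhba, the activin A subunit, had 224, 265 and 114 CPM in MeVa2.1, against 74.7, 100.5 and 71 CPM in MeVa2.2 (adjusted p = 0.0316, called in 7 of 12 fits, adjusted p up to 0.14 without MeVa2.1 replicate 2). Ltbp1, which stores latent TGF-beta in matrix, had 596, 615 and 616 CPM in MeVa2.1, against 948, 998 and 835 CPM in MeVa2.2 (adjusted p = 0.0492, called in 1 of 12 fits, adjusted p up to 0.162 without MeVa2.1 replicate 1).

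Growth factor receptors and ligands gave 6 higher and 2 lower genes of 39 tested (20.5%, beside 4.48% of all genes), or 10 higher and 3 lower with the replicate block, which called 9.51% of all genes. Mertk, the receptor kinase related to Axl that mediates engulfment of dying cells, fell with 32, 23.1 and 30.7 CPM in MeVa2.1, against 103, 101 and 104 CPM in MeVa2.2 (log2 fold change -1.84, SE 0.21, adjusted p = 0.000485). Axl, given above, was not called (adjusted p = 0.951). Igfbp3, a binding protein of insulin-like growth factors, rose with 3280, 7049 and 2915 CPM in MeVa2.1, against 706, 1259 and 1011 CPM in MeVa2.2 (log2 fold change 2.15, SE 0.34, adjusted p = 0.00466). Fgf7, keratinocyte growth factor, had 186, 259.8 and 231 CPM in MeVa2.1, against 79.7, 104 and 42.5 CPM in MeVa2.2 (log2 fold change 1.58, SE 0.30, adjusted p = 0.013, called in 10 of 12 fits, adjusted p up to 0.0592 without MeVa2.1 replicate 2). The endothelin receptors diverged: Ednra rose with 17.7, 18.3 and 13.7 CPM in MeVa2.1, against 3.25, 1.08 and 3.5 CPM in MeVa2.2 (log2 fold change 2.66, SE 0.63, adjusted p = 0.0374, called in 4 of 12 fits, adjusted p up to 0.119 without MeVa2.1 replicate 2), and Ednrb, the receptor of the melanocyte lineage, fell with 0.655, 0.273 and 0.467 CPM in MeVa2.1, against 2.73, 4.37 and 2.81 CPM in MeVa2.2 (log2 fold change -2.81, SE 0.62, adjusted p = 0.0262, called in 7 of 12 fits, adjusted p up to 0.129 without MeVa2.1 replicate 2). Ephb2, Igfbp4 and Pdgfb also rose, with log2 fold changes of 3.44, 2.45 and 3.10, called in 9 of 12, 2 of 12 and 4 of 12 fits without 1 library. Of 20 genes of MAPK output 1 rose (5%, near the share of all genes), and with the replicate block 2 rose and 1 fell. Spry1, a feedback inhibitor of receptor kinase signalling, had 37.4, 33.7 and 70.4 CPM in MeVa2.1, against 4.41, 4.59 and 3.95 CPM in MeVa2.2 (log2 fold change 3.45, SE 0.76, adjusted p = 0.0274, called in 6 of 12 fits, adjusted p up to 0.102 without MeVa2.2 replicate 1), and Dusp6, a phosphatase of ERK, had 131, 171 and 118 CPM in MeVa2.1 and 128, 127 and 144 CPM in MeVa2.2.

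Of 32 axon guidance genes, 5 rose and 1 fell (18.8%, beside 2.82% of all genes called higher and 1.66% lower), with a median log2 fold change of 0.41. Ntn1, netrin-1, had 24.2, 30.6 and 18.5 CPM in MeVa2.1, against 3.08, 6.8 and 3.08 CPM in MeVa2.2 (log2 fold change 2.50, SE 0.40, adjusted p = 0.00448). Sema3f, a secreted semaphorin, had 30, 28.8 and 37.7 CPM in MeVa2.1, against 3.83, 1.51 and 5.09 CPM in MeVa2.2 (log2 fold change 3.20, SE 0.56, adjusted p = 0.00767). Sema3b, another, had 120.3, 111 and 96.2 CPM in MeVa2.1, against 31, 20.6 and 23.3 CPM in MeVa2.2 (log2 fold change 2.13, SE 0.39, adjusted p = 0.00931). Plxnd1, a semaphorin receptor, and Ephb3, an ephrin receptor, had log2 fold changes of 1.03 and 2.04 and were each called in 8 of 12 fits. Efna5, an ephrin ligand, fell with 2.02, 1.26 and 1.67 CPM in MeVa2.1, against 8.13, 24.6 and 9.61 CPM in MeVa2.2 (log2 fold change -3.09, SE 0.45, adjusted p = 0.00291).

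Of 20 retinoic acid and nuclear receptor genes, 3 rose and none fell (15%), and with the replicate block 4 rose and 1 fell. Nr4a1, an immediate-early orphan receptor, had 223, 169.7 and 106 CPM in MeVa2.1, against 19.4, 17 and 36.5 CPM in MeVa2.2 (log2 fold change 2.77, SE 0.42, adjusted p = 0.00345). Nr4a2, its relative, had 168, 101 and 66 CPM in MeVa2.1, against 32.9, 17.2 and 34.1 CPM in MeVa2.2 (adjusted p = 0.0339, called in 5 of 12 fits, adjusted p up to 0.124 without MeVa2.1 replicate 1). Rarg, a retinoic acid receptor, had 396, 453 and 382 CPM in MeVa2.1, against 176, 184 and 165 CPM in MeVa2.2 (log2 fold change 1.23, SE 0.21, adjusted p = 0.00601). In the glycolysis and hypoxia list 1 of 25 rose (4%, near the share of all genes), and with the replicate block 4 rose and 1 fell. Slc2a3, the glucose transporter GLUT3, had 27.9, 29.9 and 18.6 CPM in MeVa2.1, against 0.116, 0.054 and 0.38 CPM in MeVa2.2 (log2 fold change 6.95, SE 0.67, adjusted p = 0.000172), with neighbouring Foxj2 at 52, 56.9 and 63.2 CPM in MeVa2.1 and 40.5, 43.9 and 46 CPM in MeVa2.2 (adjusted p = 0.325). Apobec1, on the other side of Slc2a3, had 36.9, 29.3 and 24.9 CPM in MeVa2.1, against 18.9, 14.15 and 8.02 CPM in MeVa2.2 (log2 fold change 1.15, adjusted p = 0.0581, or 0.0079 with the replicate block). Among 9 contractile genes 1 rose and none fell (11.1%), as with the replicate block. Carmn, a long non-coding RNA of smooth muscle, rose with 32.8, 42.5 and 21.2 CPM in MeVa2.1, against 0.871, 1.67 and 0.988 CPM in MeVa2.2 (log2 fold change 4.77, SE 0.44, adjusted p = 0.000124).

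Among melanoma drivers and tumour suppressors, the 3 of 24 called were Mtap, Cdkn2a and Pik3cd (12.5%), and the replicate block called the same 3. Nras had 172, 234 and 198 CPM in MeVa2.1 and 190.3, 256 and 177 CPM in MeVa2.2 and Braf had 48.8, 64.2 and 43.8 CPM in MeVa2.1 and 54.4, 78.6 and 41.8 CPM in MeVa2.2, both overlapping between the lines. Trp53 had 125, 109 and 163 CPM in MeVa2.1, against 176, 241 and 166 CPM in MeVa2.2 (adjusted p = 0.325). Of 20 p53 targets and CDK inhibitors edgeR called none, 1 had an unadjusted p under 0.05 and DESeq2 called none, while with the replicate block 2 rose.

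Of the patterning genes, 2 of 39 Hox genes passed the filter on low counts. Of these 2, Hoxd8 fell and none rose (50%, but of 2 genes only), as with the replicate block. Hoxd8 had 0, 0.0547 and 0.0824 CPM in MeVa2.1, against 2.96, 3.29 and 3.46 CPM in MeVa2.2 (log2 fold change -5.82, SE 0.75, adjusted p = 0.00112). Of 28 limb and mesenchymal patterning factors, 2 fell (7.14%), and with the replicate block 3 fell and 1 rose. These were Gata3, a zinc finger factor, at 0.491, 0.492 and 0.384 CPM in MeVa2.1, against 3.43, 6.26 and 3.04 CPM in MeVa2.2, and Alx1, a homeobox factor of the craniofacial neural crest, at 0.0546, 0 and 0 CPM in MeVa2.1, against 1.39, 3.35 and 0.646 CPM in MeVa2.2. In the clustered protocadherins, which neurons use to tell their own branches apart, 4 of 23 rose and 3 fell (30.4%). With the replicate block 5 rose and 5 fell. Pcdhgb6 rose with 22.8, 25.4 and 25.3 CPM in MeVa2.1, against 0.0581, 0.054 and 0.19 CPM in MeVa2.2, and Pcdhgb1 fell with 2.24, 1.59 and 2.14 CPM in MeVa2.1, against 18.7, 18.2 and 13.7 CPM in MeVa2.2. These genes share their last exons and lie within one another, so the assignment of reads among them is uncertain.

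The cell cycle list followed the replicates and not the lines. Over 26 cell cycle genes the mean log2 CPM was 6.24, 5.64 and 6.95 in MeVa2.1, against 6.48, 5.01 and 7.17 in MeVa2.2, and replicate 2 was the lowest in both. Mki67, a marker of cycling cells, had 232, 134 and 529 CPM in MeVa2.1 and 232, 46.1 and 535 CPM in MeVa2.2. EdgeR called none of this list, none had an unadjusted p under 0.05 and DESeq2 called none. In all, 13 of 38 lists had no call, with 161 members tested between them, 11 of those called with the replicate block, 5 in DESeq2 and 18 at an unadjusted p under 0.05. They include p53 targets, cholesterol and fatty acid synthesis, the integrated stress response, imprinted genes, complement and mitochondrial messages, and their medians lay between -0.30 and 0.28. Of the 627 genes called, 551 belonged to no list.

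The dOVA lines give the same contrast in 6 other libraries, which enter the parental fit in its estimate of the spread but not in its means. There 1574 of 13985 genes differed between MeVa2.1.dOVA and MeVa2.2.dOVA (11.3%), 902 higher (6.45%) and 672 lower (4.81%). The replicate block called 3079, 12.4% of all tested genes higher and 9.60% lower. Without 1 library of the dOVA lines the count was 813 and 946 (MeVa2.1.dOVA replicates 1 and 3), 816 and 796 (MeVa2.2.dOVA replicates 1 and 2) and 2578 (MeVa2.2.dOVA replicate 3). Of the 627 parental genes, 600 had the same sign in the dOVA pair (95.7%, beside 71.7% of all tested genes). In 417 the dOVA pair was called in the same direction, which is 66.5% of the parental calls and 26.5% of the dOVA calls. Called in opposite directions were 2 genes, Lrfn3, a synaptic adhesion protein, at log2 fold changes of 1.97 and -2.32, and Chst7, a sulfotransferase, at -2.45 and 1.89. In the parental pair Chst7 was called in 9 of 12 fits, adjusted p up to 0.0595 without MeVa2.2 replicate 2. The median log2 fold change of the 395 higher genes was 2.56 in the parental pair and 2.43 in the dOVA pair, and that of the 232 lower genes -2.92 and -2.24. Pearson's r between the parental and the dOVA log2 fold changes was 0.738 across 13985 genes, a description, since genes are not independent replicates.

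Genes with large parental differences were given in the dOVA pair as follows. Pik3cd had 169, 243 and 117 CPM in MeVa2.1.dOVA, against 0.791, 0.222 and 1 CPM in MeVa2.2.dOVA (log2 fold change 7.95, SE 0.53, adjusted p = 8.3e-06). Tfap2b had 111, 59.9 and 123 CPM in MeVa2.1.dOVA, against 0, 0 and 0.0556 CPM in MeVa2.2.dOVA. Cd276 had 79.5, 60.7 and 102 CPM in MeVa2.1.dOVA, against 16.5, 9.92 and 3.98 CPM in MeVa2.2.dOVA (log2 fold change 3.0, SE 0.50, adjusted p = 0.00296). Mertk had 22, 14.4 and 20.1 CPM in MeVa2.1.dOVA, against 68.4, 71.8 and 53.5 CPM in MeVa2.2.dOVA (log2 fold change -1.78, SE 0.21, adjusted p = 0.000353). Interferon-stimulated genes were called lower in MeVa2.1.dOVA in 36 of 40 tested, beside 4.81% of all genes, with a median of -4.07. Their mean log2 CPM was 1.60, 1.18 and 0.77 in MeVa2.1.dOVA, against 5.03, 4.66 and 6.38 in MeVa2.2.dOVA. The difference between the pairs (parental minus dOVA log2 fold change) was above 0 in 38 of the 40, with a median of 2.34. It was called in 0 of them, with or without the replicate block.

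Other parental differences were not called there. Hoxd8 had 1.16, 0.474 and 1.35 CPM in MeVa2.1.dOVA, against 2.06, 0.61 and 0.946 CPM in MeVa2.2.dOVA (log2 fold change -0.25, SE 0.56, adjusted p = 0.841). Gfra2 had 28.8, 4.38 and 31.7 CPM in MeVa2.1.dOVA, against 6.33, 12.7 and 32.2 CPM in MeVa2.2.dOVA (log2 fold change 0.34, SE 0.70, adjusted p = 0.793), and Plxnd1 had 31.4, 32.9 and 31.3 CPM in MeVa2.1.dOVA, against 30.3, 38.4 and 32.2 CPM in MeVa2.2.dOVA (log2 fold change -0.08, SE 0.21, adjusted p = 0.843). Whether such genes differ between the pairs was tested directly as the difference of the 2 differences, which edgeR called in 12 genes (0.0858%), 6 of them among the 627, and in 118 with the replicate block. None was called without MeVa2.1.dOVA replicate 3 or without MeVa2.2 replicate 1, where 1125 and 992 genes had an unadjusted p under 0.05, while DESeq2 on all libraries called 272. Carmn is one of the 12: in the dOVA pair it had 4.71, 2.43 and 2.9 CPM in MeVa2.1.dOVA, against 1.05, 1.72 and 2.03 CPM in MeVa2.2.dOVA. Hoxd8, Gfra2 and Plxnd1 are not among them.

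**Figure D5:**
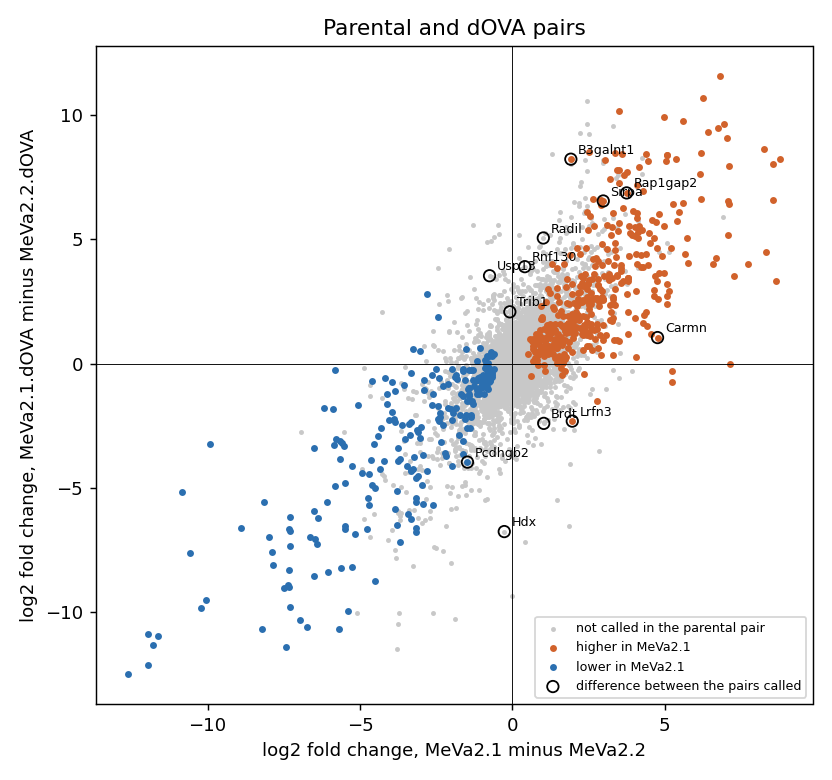
Log2 fold change between the parental lines (MeVa2.1 minus MeVa2.2, x axis) against that between the dOVA lines (MeVa2.1.dOVA minus MeVa2.2.dOVA, y axis), 1 point per tested gene. The 627 parental calls lie mostly in the quadrants of equal sign (600 genes); the 12 circled genes are those whose difference between the pairs was called.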

How the data were processed

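RNA-seq was made from 12 libraries of 4 mouse melanoma lines with a stranded mRNA kit, per the labels' protocols. The authors deposited raw read counts per gene, 1 file per library; STAR 2.6.0c, HTSeq 0.10.0, DESeq2 1.30.1 and build GRCm38 are named in the submitters' processing notes. The strand setting of the counting is not given in the sources used here, so overlapping and antisense genes are uncertain. Names and positions came from GENCODE M21, which held 55230 of 55471 gene IDs.

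The counts, without HTSeq's tallies of unassigned reads, were fitted with edgeR 4.0.16 (R 4.3.3) after filterByExpr and TMM, with 1 mean per line over all 12 libraries. The quasi-likelihood test and Benjamini-Hochberg adjustment were used at 0.05 over 13985 genes. Fold changes are log2, MeVa2.1 minus MeVa2.2. Alternatives were DESeq2 1.42.0, other filters and scaling, the 2 lines alone, a replicate block and each library left out. Deviations of same-numbered libraries of MeVa2.1 and MeVa2.2 correlated at r = 0.429, 0.405 and 0.328, and those of the dOVA lines at 0.105, 0.516 and 0.416, all over the limit of 0.1; in the dOVA lines 2 pairs of unlike number also passed it, at 0.315 and 0.17. The numbers were thus read as pairs in the replicate block, from the data and the shared numbers in the labels. The main fit had no term for them.

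On simulated counts with 13985 genes, 100 genes were changed by a log2 fold of 2, all with a log2 of mean CPM above 3. The test called 90% of these for the parental pair. Genes of lower level were not changed and no shared effect of replicate number was simulated, so the 90% does not cover those cases. Genes and lists were chosen with earlier results of these data known. Named genes were the 12 largest changes per direction with mean log2 CPM of at least 3 and no overlap, up to 6 list members with the smallest adjusted p, any member of the immune, pigment, neural crest, driver and Hox lists, up to 8 genes per direction with 3 counts or fewer in 1 line, and the genes called for a difference between the pairs. Flanking genes, members of runs of neighbouring genes and some uncalled list members were named after their values were seen. Some genes that the rule names are not reported here.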

Additional observations from a re-analysis of the deposited data

Results flagged for a closer look

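For 12 genes the difference between the lines was itself different in the parental and the dOVA pair, by edgeR's test of the difference of the 2 log2 fold changes (parental minus dOVA, ± SE). Rnf130, a ubiquitin ligase, had 0.41 in the parental pair and 3.90 in the dOVA pair, a difference of -3.49 ± 0.53, adjusted p = 0.0411. Brdt, a bromodomain protein of the testis, had 1.03 and -2.41, a difference of 3.44 ± 0.51, adjusted p = 0.039. Radil, an effector of Rap GTPases, had 1.02 and 5.05, a difference of -4.03 ± 0.63, adjusted p = 0.0455. Trib1, a pseudokinase, had -0.08 and 2.08, a difference of -2.16 ± 0.32, adjusted p = 0.039. Hdx, a homeobox gene, had -0.26 and -6.76, a difference of 6.50 ± 0.71, adjusted p = 0.0119. Lrfn3 had 1.97 and -2.32, a difference of 4.28 ± 0.50, adjusted p = 0.0121.

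Sirpa, a receptor that binds Cd47, had 2.98 in the parental pair and 6.54 in the dOVA pair, a difference of -3.55 ± 0.40, adjusted p = 0.0119. Rap1gap2 had 3.75 and 6.86, a difference of -3.11 ± 0.43, adjusted p = 0.0357. B3galnt1, a glycosyltransferase, had 1.92 and 8.22, a difference of -6.30 ± 0.91, adjusted p = 0.039, and its 2 counts over MeVa2.2.dOVA leave the size of the fitted difference dependent on the model's prior count. In the parental pair alone B3galnt1 had an adjusted p of 0.0465 and was called in 2 of 12 fits, adjusted p up to 0.126 without MeVa2.1 replicate 3. Usp13, a deubiquitinase, had -0.75 and 3.53, a difference of -4.28 ± 0.59, adjusted p = 0.0357. Carmn had 4.77 and 1.04, a difference of 3.72 ± 0.56, adjusted p = 0.039. Pcdhgb2, whose reads share exons with its cluster, had -1.47 and -3.97, a difference of 2.49 ± 0.35, adjusted p = 0.0357. Sirpa had 76.8, 119 and 95.2 CPM in MeVa2.1, against 11.8, 12.5 and 12.4 CPM in MeVa2.2, and in the dOVA lines 95.8, 85 and 85.5 CPM in MeVa2.1.dOVA, against 1.42, 0.997 and 0.529 CPM in MeVa2.2.dOVA. None of the 12 was called without MeVa2.1.dOVA replicate 3 or without MeVa2.2 replicate 1.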

How the results depend on the processing

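The count of 627 genes between the parental lines was 1224 in DESeq2, 969 with no filter on low counts, 397 with the lines fitted alone, 330 for a fold change above 1.5 and 1330 with the replicate block. Without 1 library it ran from 279 to 775, and without MeVa2.2 replicate 2 it was 365, with 197 higher and 168 lower against 395 and 232. The 1574 genes of the dOVA pair became 2370 in DESeq2, 3079 with the replicate block, 1025 with those lines alone and 796 to 2578 without 1 library. The 12 genes for the difference between the pairs became 272 in DESeq2, 161 with no filter, 118 with the replicate block and 0 to 13 without 1 library. With the replicate block and without MeVa2.2 replicate 2 together, an alternative chosen after seeing the data, the counts were 698 for the parental pair, 3035 for the dOVA pair and 74 for the difference. Of 696 list members, 76 were called, against 141 in DESeq2, 142 with no filter, 153 with the replicate block and 42 to 92 without 1 library. Places with a shifted median numbered 4 with windows of 25 genes, 0 with windows of 50 and 5 to 28 without 1 library. Of 109 named genes, 61 were called in every fit without 1 library, and over 2164 values 320 lost the call and 0 reversed. The replicate block changed no other call that the text names than those given beside their genes. The cause of these changes was not tested. With 3 libraries per line, and 16896708 to 35627069 counts each in the parental lines, genes of a few counts cannot be compared.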
